A study of Mus musculus with 18 samples.

Results

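The genes described here encode the proteins of the cytosolic ribosome. They were chosen by symbol alone: Rpl or Rps followed by a number and an optional a, l or x, together with Rplp0, Rplp1, Rplp2 and Rpsa. The symbol rule matched 83 mouse genes, and leaving out the annotated pseudogenes Rps4l and Rpl6l gave 81 members, 50 of the large subunit and 31 of the small subunit, out of 27179 genes listed. In each of the 5 deposited comparisons 79 of the members have a p-value. Rpl10l has no reads in any of them.

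RNA of sorted mouse spinal motor neurons (MNs) was sequenced in 18 samples. At e12.5 these were 6 control samples and 3 Hoxc8 MNΔ samples of brachial cord, and at p8 they were 3 brachial, 3 thoracic and 3 lumbar samples of wild type genotype. By the methods, different cord segments were dissected for the comparison of stages and for that of control with mutant. The paper gives the controls of the mutant comparison as Hoxc8fl/fl, that is with floxed Hoxc8, and names Mnx1-GFP embryos for the stages. Which control samples came from which dissection or genotype is not given in the sources used here. The embryonic cells carried Mnx1-GFP, a GFP reporter of the homeodomain gene Mnx1. Postnatal cells carried ChatIRESCre::Ai9, in which tdTomato is switched on wherever Cre has been made from the Chat locus. In Hoxc8 MNΔ embryos a floxed Hoxc8 gene was deleted by Olig2Cre, which acts in MN progenitors and in other cells of that domain. Several spinal cords were pooled for each sample, and the stages also differ in reporter and line, so that stage and reporter cannot be told apart.

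The files hold 1 value per gene and comparison and none per sample. A level below is a normalized count, which is a read count corrected for the depth of its library, and it was solved for each stage or region from the mean over all samples and the fold change. It therefore has no SD, and between the stages it rests on weights of 6 and 3 samples, as the labels list them, where the methods name 3 at e12.5. With weights of 3 and 3 a member's level at both stages would be 0.688 to 1.2004 times the one printed, and with 6 and 2 it would be 0.923 to 1.29 times, while fold changes do not depend on the weights. Its error is carried by the log2 fold change, given with its 95% interval. A gene was called where the Wald p, adjusted by the Benjamini-Hochberg method across every gene that has one, was under 0.05. Where nothing says that samples came from separate litters, these p-values measure the spread between samples only.

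A cytosolic ribosome joins a small subunit, which reads the mRNA, to a large subunit, which forms peptide bonds and leads the new chain out through an exit tunnel. Its proteins are needed in nearly equal numbers and are made from some of the most abundant mRNAs of a cell. Those mRNAs usually begin with a C and an unbroken run of pyrimidines, the 5′ terminal oligopyrimidine (TOP) tract, through which the mTOR pathway adjusts their translation together. Large neurons such as MNs carry dense arrays of ribosomes, and also send ribosomal protein mRNAs into their axons.

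The start sites of members that differed between the stages are shown to let the tract be seen. A tract was taken as a C followed by at least 6 bases that are each C or T, on the sense strand only, since the TOP tract is read in the mRNA, and within 40 bases of the RefSeq start. RefSeq promoter entries (GRCm38.p6) were found for 61 members, and 49 of these (80.3%) held such a tract, against 37.5% of all 27025 genes with an entry. Those shown are called members whose entry holds a tract, up to 5 in each direction by p. Higher at e12 were Rps15a (chr7:118116139-118116168, minus strand), Rpl15 (chr14:18270967-18270996, minus strand) and Rpl5 (chr5:107900502-107900531, plus strand). Higher at p8 were Rpl13 (chr8:123102328-123102357, plus strand), Rps27l (chr9:66946068-66946097, plus strand), Rpl37a (chr1:72711278-72711307, plus strand), Rpl39 (chrX:37085193-37085222, minus strand) and Rpl38 (chr11:114668574-114668603, plus strand). Each line gives the 30 sense bases around the longest tract of an entry, 5′ to 3′, with the tract in capitals. A shorter tract nearer to the start is not marked. Where a gene has several entries with a tract, the one whose longest tract begins nearest to its start was used.
Rps15a: ggcccaCTCTCTTTCTgccatcttccctcg
Rpl15: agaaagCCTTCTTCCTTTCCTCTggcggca
Rpl5: cagccaCTCTTTCTCacgtcgcttgcgtgc
Rpl13: acgtcaCTTCCCTTTCgcctgattttgatt
Rps27l: tctccaCTCCTCCCCgccgcctctatcccg
Rpl37a: ttgcgtCCCTTCCTCTTCggacttgggctt
Rpl39: tagcgaCTTCTTCTaatcgcgttcttccgg
Rpl38: ctcgttCTTTCCCCgttctcttcggttctc
Among members with an entry and a p-value between the stages, the tract was found in 3 of 4 that were higher at e12, in 15 of 18 that were higher at p8 and in 30 of 37 that were not called. A tract is thus common among members of every kind of call. A match describes these letters only and is not evidence of a start of transcription there.

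Between e12 and p8, the question was which genes of brachial MNs keep or change their level as the embryonic cell becomes a postnatal one. Of the 79 members tested, 25 were higher at p8 and 5 were higher at e12, and the stricter Benjamini-Yekutieli adjustment left 14 and 1 of these. Of all 18787 genes tested, 23% were higher at p8 and 24.8% were higher at e12, so that 31.65% and 6.33% of the members stand beside these shares. The median log2 fold change of e12 over p8 was -0.71 over the members and -0.04 over all genes, and 60 of 79 members had a value under 0. Between their 10th and 90th percentiles the members ranged from -2.22 to 0.51 and all genes from -3.20 to 3.49. These widths are not like for like. All genes include those with a mean normalized count under 1, whose median standard error was 2.38, against 0.45 over the members.

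**Figure D1:**
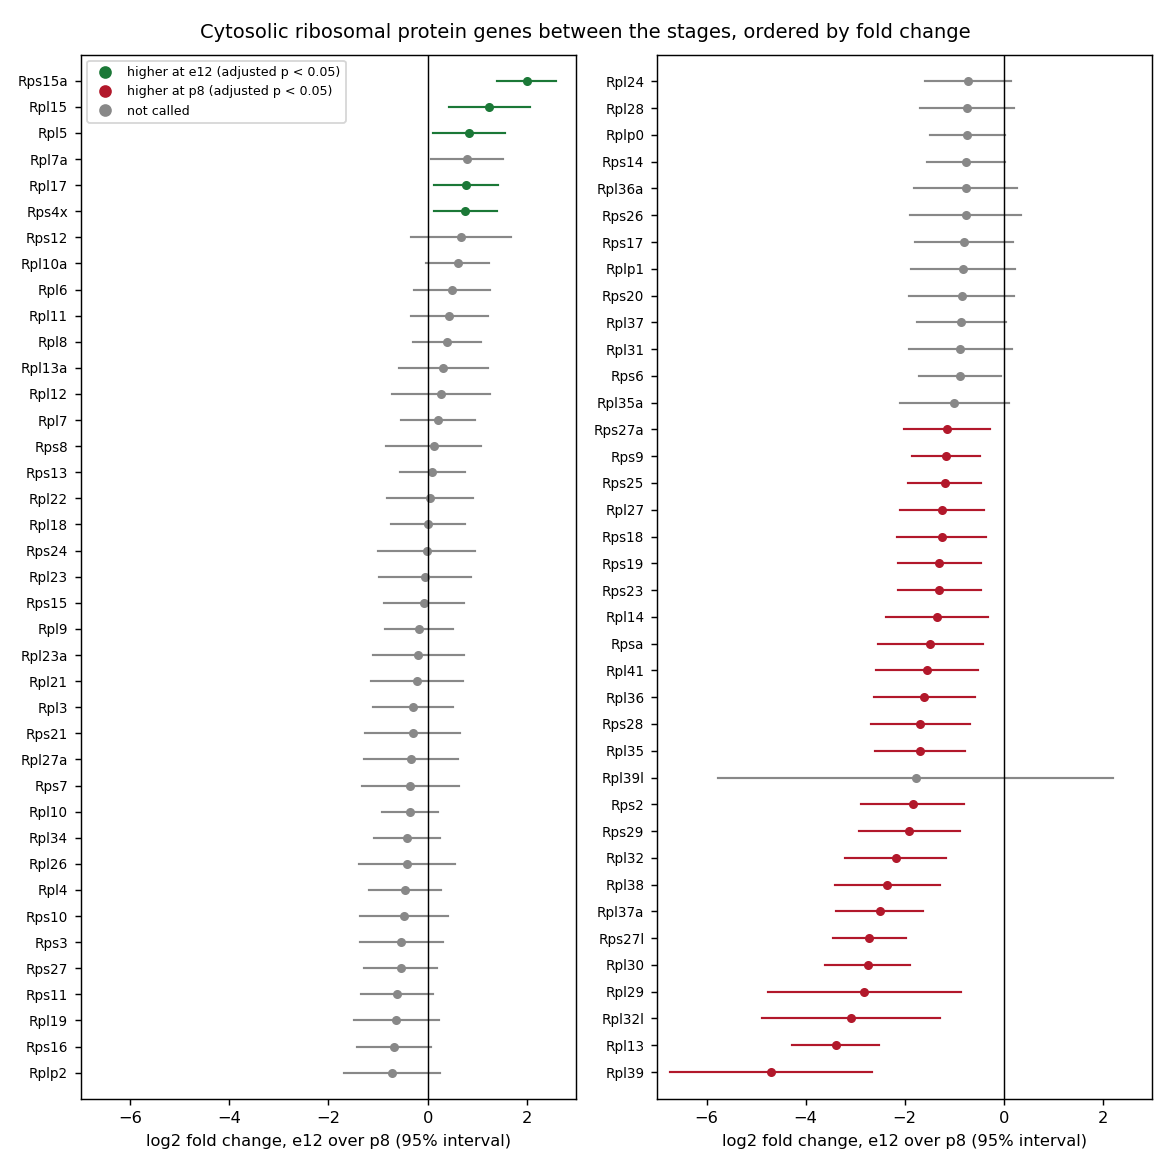
Log2 fold change of e12 over p8 for 77 of the 79 members with a p-value, ordered by size and running from the left to the right panel; points are the values of the deposited model and lines their 95% intervals. The 5 members higher at e12 stand at the top left and those higher at p8 fill most of the right panel, with Rpl39 lowest at -4.69.

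The composition of the sorted samples differs between the stages, and this was measured beside the members. All 10 oligodendrocyte markers were higher at p8, where they held 43.6% of the summed levels against 0.00994% at e12, with each marker at 886 or more at p8 and at 848 or less at e12. Likewise 10 of 10 microglia markers, 6 of 8 tested astrocyte markers and 9 of 10 endothelial markers were higher at p8. Of the other astrocyte markers, Slc1a3 with 856 at e12 and 447 at p8, and Fgfr3 with 986 and 1224, were not called. Slc1a2, with 5604 and 514, and Aldh1l1, with 120 and 107, have no p-value. Neutrophil markers held 0.00117% of the summed levels at e12 and 2.87% at p8. None of these 8 genes has a p-value, so no call was made, and whether every p8 sample held them is unknown. Of 10 MN markers 7 were higher at e12 and none at p8. Chat itself stood at 202 in embryonic and 37.8 in postnatal samples (adjusted p = 0.0836), and Mnx1 at 3504 and 5.80. All 9 tested markers of other spinal neurons were higher at e12, among them Pax2 with 7046 against 0.611. The part of other cells in the members' differences was not tested. In bulk RNA, fewer cells of a type and less RNA per cell cannot be told apart.

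The members higher at e12 come from both subunits. Rps15a, a small subunit protein bound to 18S rRNA, went from 2797 at e12 to 697 at p8, a log2 fold change of 2.01 (95% interval 1.41 to 2.60, adjusted p = 3.49e-10). Rpl15, a large subunit protein, went from 1740 to 733, a log2 fold change of 1.25 (0.44 to 2.06, adjusted p = 0.00672). Rps15a alone in this direction exceeded a fold of 4. The other three lay close to the threshold. Levels of Rpl5, which carries 5S rRNA into the large subunit together with Rpl11, were 1491 and 830 (adjusted p = 0.0482). Rpl17, a protein of the exit tunnel, had 169 and 99.1 (adjusted p = 0.0416), and Rps4x, a small subunit protein encoded on the X chromosome, had 842 and 498 (adjusted p = 0.0409).

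The members higher at p8 changed by more. Rpl13, a large subunit protein, had a level of 189 at e12 and 1993 at p8, with a log2 fold change of -3.40 (-4.26 to -2.53, adjusted p = 2.04e-13). Rps27l, a paralog of Rps27 known as a target of p53, had 196 and 1286, a log2 fold change of -2.72 (-3.45 to -1.98, adjusted p = 4.51e-12). Rpl30, a large subunit protein also studied in selenoprotein synthesis, had 140 and 938 (-2.75, -3.61 to -1.89, adjusted p = 3.10e-09). Rpl37a, a zinc finger protein of the large subunit, had 676 and 3836 (-2.51, -3.38 to -1.63, adjusted p = 1.30e-07).

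Rpl38, known from the Tail short mouse, in which its loss alters the skeleton and the translation of Hox mRNAs, had a level of 565 at e12 and 2894 at p8 (-2.36, -3.41 to -1.30, adjusted p = 5.02e-05). Rpl32 had 1869 and 8472 (-2.18, -3.20 to -1.16, adjusted p = 9.63e-05). Rps29, a small zinc finger protein of the small subunit, had 1471 and 5505 (-1.90, -2.92 to -0.89, adjusted p = 0.000778). In all, 9 members were higher at p8 with a fold over 4. The remainder of the 25 include Rps2, Rps9, Rps19, Rpl14, Rpl35, Rpl36 and Rpl41, the shortest protein of the ribosome.

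Rpl39, a short protein lining the exit tunnel, needs separate mention. Its level was 1.89 at e12 and 48.8 at p8, and its log2 fold change of -4.69 has a wide interval (-6.73 to -2.65, adjusted p = 2.63e-05). In the comparison of e12.5 controls with mutants, which was counted per RefSeq transcript, the same gene had a base mean, that is the mean over its samples, of 355. The tables were normalized separately, but for the 63 members with 1 transcript row there and a level of at least 50 at e12 the base mean was a median of 0.241 times that level, with a range from 0 to 3.47, where for Rpl39 it was 188 times. The cause was not tested.

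**Figure D2:**
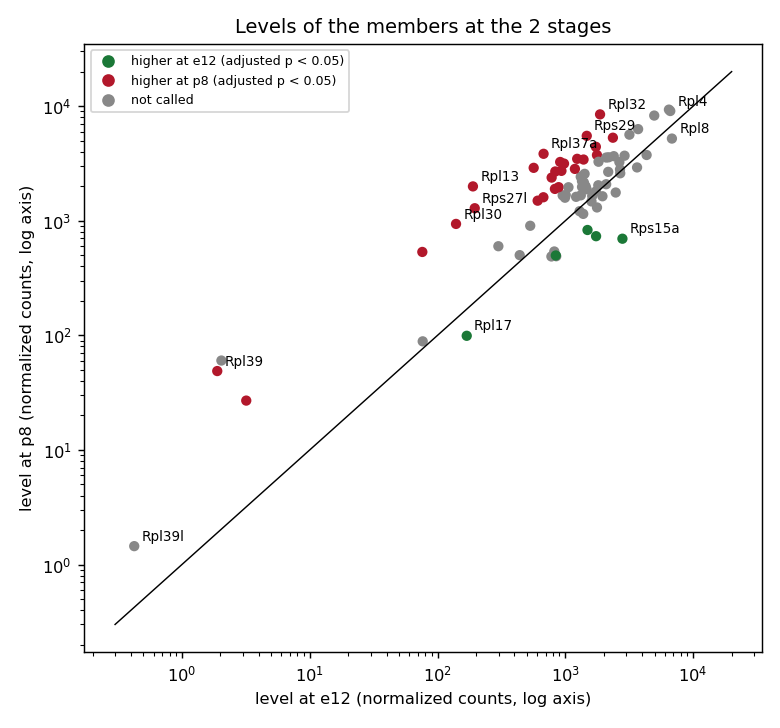
Level of each member with reads at e12 (horizontal) and p8 (vertical) in normalized counts on log axes, coloured by call; the line marks equal levels. At each stage 74 members lie at 100 or more, Rps15a stands below the line, and Rpl13, Rps27l and Rpl30 stand above it.

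Members not called were not shown to be equal. Of 49 such members, 9 had an interval that lay wholly within a fold of 2 in either direction. The most abundant members were among those not called. Rpl4, whose loop lines the exit tunnel, had levels of 6621 and 9065 (-0.45, -1.18 to 0.27), and Rps3, at the mRNA entry of the small subunit, had 6464 and 9322 (-0.53, -1.36 to 0.31). Rpl8, near the peptidyl transferase centre, had 6821 and 5212 (0.39, -0.30 to 1.08).

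By role, none of the 4 proteins of the P stalk, the arm that recruits elongation factors, was called. Rplp0, its base, had levels of 4961 and 8273 (adjusted p = 0.108), Rplp1 had 3172 and 5637 (adjusted p = 0.205) and Rplp2 had 2183 and 3577 (adjusted p = 0.248). Rpl12, which joins the stalk to the rRNA, had 1381 and 1148 (adjusted p = 0.74). Of the 2 proteins that bind 5S rRNA, Rpl5 was called and Rpl11 was not (1769 and 1306, adjusted p = 0.399). The 3 proteins of the exit tunnel gave 3 different outcomes, since Rpl17 was higher at e12, Rpl39 was higher at p8 and Rpl4 was not called. Of 5 proteins at the rim of the tunnel, Rpl35 was higher at p8 with 976 and 3152 (adjusted p = 0.000906). In a list of 9 genes mutated in Diamond-Blackfan anaemia, which may not be complete, Rps19 was higher at p8 with 1388 and 3419 (adjusted p = 0.00668). Rpl5, also in that list, was higher at e12. Rpsa, a small subunit protein first described as a laminin receptor, was higher at p8 with 1238 and 3469 (-1.49, -2.55 to -0.42, adjusted p = 0.0147).

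The counts of the large and the small subunit lay close together. Of the 48 large subunit genes tested 14 were called toward p8 and 3 toward e12, with -0.67 as the median log2 fold change. Of 31 small subunit genes 11 were called toward p8 and 2 toward e12, with -0.76 as the median.

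Rpl3l, Rpl10l and Rpl39l were below 100 at both stages, while Rps27l was within the range of the standard genes. Rpl3l, the form of striated muscle, had a level of 2.04 at e12 and 60.3 at p8 but has no p-value, while Rpl3 had 2646 and 3251 (adjusted p = 0.627). Rpl39l and Rpl10l, forms known from testis, were at 0.424 and 1.45, and at 0 in every comparison. Rpl10 had 1467 and 1883 (adjusted p = 0.332). Rps27, with 1351 and 1972 (adjusted p = 0.24), was not called, whereas Rps27l was. The proteins of Rpl7 and Rpl7a are not paralogs in spite of the names: Rpl7 had 4324 and 3747 (adjusted p = 0.728) and Rpl7a had 849 and 490 (0.79, 0.06 to 1.52, adjusted p = 0.0671). The excluded Rps4l, annotated as a transcribed pseudogene, had 809 and 631 (adjusted p = 0.69).

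Levels can be compared between genes only per length. Per base of coding sequence, the base mean over both stages was highest in Rpl41 at 19.6 normalized counts, then Rps29 at 16.5, Rplp1 at 11.6, Rps3 at 10.1 and Rps14 at 10.03. It was 0 in Rpl10l, 0.00490 in Rpl39l, 0.0175 in Rpl3l, 0.112 in Rpl39 and 0.167 in Rpl21. Per base of whole transcript, Rplp1, Rpl32, Rps14, Rpl8 and Rps29 led, so 3 of the first 5 were shared. Of the lowest 5, 4 were shared, since Rpl32l, which has no coding length in GENCODE M21, took the place of Rpl21. The range among standard members was wide, although their proteins stand in the ribosome in nearly equal number.

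Ribosomal protein genes have many processed copies in the genome. The methods say that unique reads were aligned, without saying whether this means reads with a single placement. Some 50-base windows of a member's transcript also occur in the transcript of another gene. Their share ranged from 0%, as in Rpl3l and Rpl39l, to 98.65% in Rps27, which had a base mean of 1558 over both stages. Across 78 members the Spearman correlation of this share with the base mean per coding base was -0.42, and with the base mean per transcript base across 79 members it was -0.13. With the stage log2 fold change it was 0.12. Restricted to the 33 tested members with less than 50% of their windows shared, 11 were higher at p8 and 2 at e12, with a median of -0.74.

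The stage difference went with length. The Spearman correlation of the log2 fold change with coding length was 0.47 across 78 members and 0.27 across 14680 genes with a coding length in GENCODE M21. Points share their libraries, so this is a description across genes. With a coding length of up to 300 bases the median was -1.77 over 11 members and -1.68 over 304 genes. Between 300 and 600 bases it was -0.71 over 46 members and -0.82 over 1704 genes, the members included. Above 600 bases it was 0.12 over 21 members, the longest of 1260 bases, and -0.42 over the 4930 genes that were no longer than this. Without that upper limit it was 0.12 over 12672 genes. The members' median was thus near that of genes of like length up to 600 bases and above it in the longest class. Of members up to 300 bases 63.6% were higher at p8 and 0% at e12, against 51.0% and 7.57% of all genes. Between 300 and 600 bases these shares were 28.3% and 4.35% of members against 41.4% and 12.3% of all genes, and from there to 1260 bases 19.0% and 14.3% against 30.6% and 20.02%. The part of length in the members' calls was not tested.

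**Figure D3:**
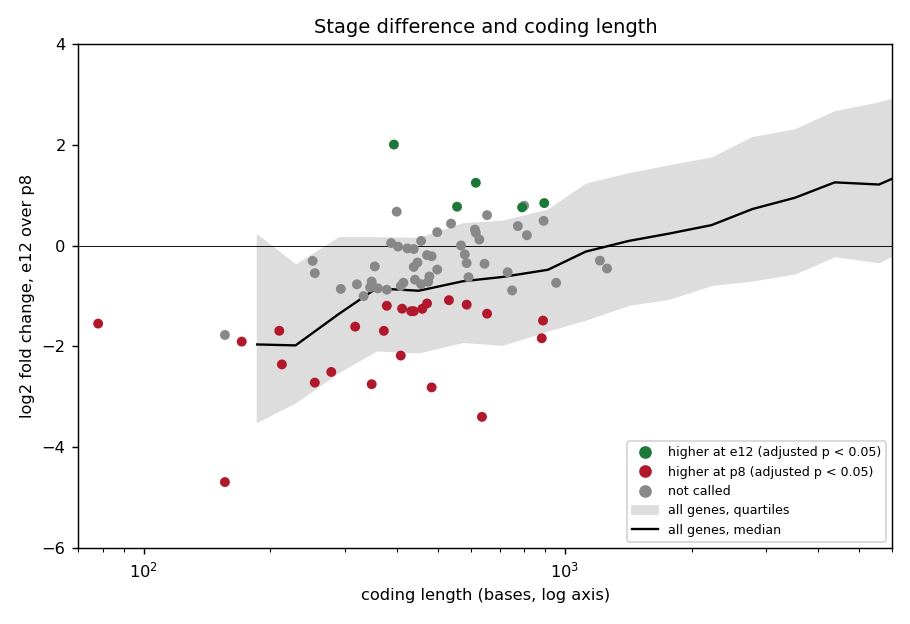
Log2 fold change of e12 over p8 against coding length in bases (log axis) for 78 members, with the quartiles and median of all genes in classes of length holding at least 20 genes. Members and genes both lie lowest where the coding length is shortest, and above 600 bases the members' median of 0.12 lies over the line for genes of their length.

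As a sum, the members' levels were 129864 at e12 and 199380 at p8. As a share of all levels this was 0.843% at e12 and 0.551% at p8, the opposite order, and without the oligodendrocyte markers in the total it was 0.843% and 0.976%. The order of the shares thus turned on 10 marker genes and gives no direction for the members.

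Other genes of the translation machinery were set beside the members by lists. Among mitochondrial ribosomal proteins, which form the separate ribosome of mitochondria, 45 of 77 were higher at p8 and 4 at e12 (median -1.01), among them Mrpl20 with 784 and 2297. Among proteasome subunits 13 of 37 were higher at p8 and 1 at e12 (median -0.52). Both lists thus had more calls toward p8, as the members did.

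Factors that work on the ribosome had another balance of calls. The lists were not matched by coding length, with which the stage difference went, and the part of length in these calls was not tested. Of 37 initiation factor genes 13 were higher at e12 and 5 at p8, with Eif4g1, the scaffold of the cap-binding complex, at 11814 and 2182.1 (adjusted p = 1.89e-21) and Eif4g2 at 42238 and 18221 (adjusted p = 6.36e-08). Of 10 elongation factor genes 2 were higher at each stage. Eef2, which moves the ribosome along the mRNA, had 34431 and 14223 (adjusted p = 0.000191), and Eef1a1, which delivers tRNA, had 19224 and 21189 (adjusted p = 0.849).

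Of 18 further genes whose mRNAs are known to carry a TOP tract, Eef2 and Eef1a1 included, 6 were higher at e12 and none at p8 (median 0.50). Genes of mTOR and of proteins that bind the tract gave 5 and 3 of 13. RNA polymerase I genes, which make rRNA, gave 5 and 0 of 11, with Rrn3 at 3309 and 1128 and Ubtf at 2946 and 1749. Ribosome biogenesis factors gave 12 and 9 of 50, near the shares of all genes, and Ncl, the nucleolar protein nucleolin, had 6990 and 8256 (adjusted p = 0.635).

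**Figure D4:**
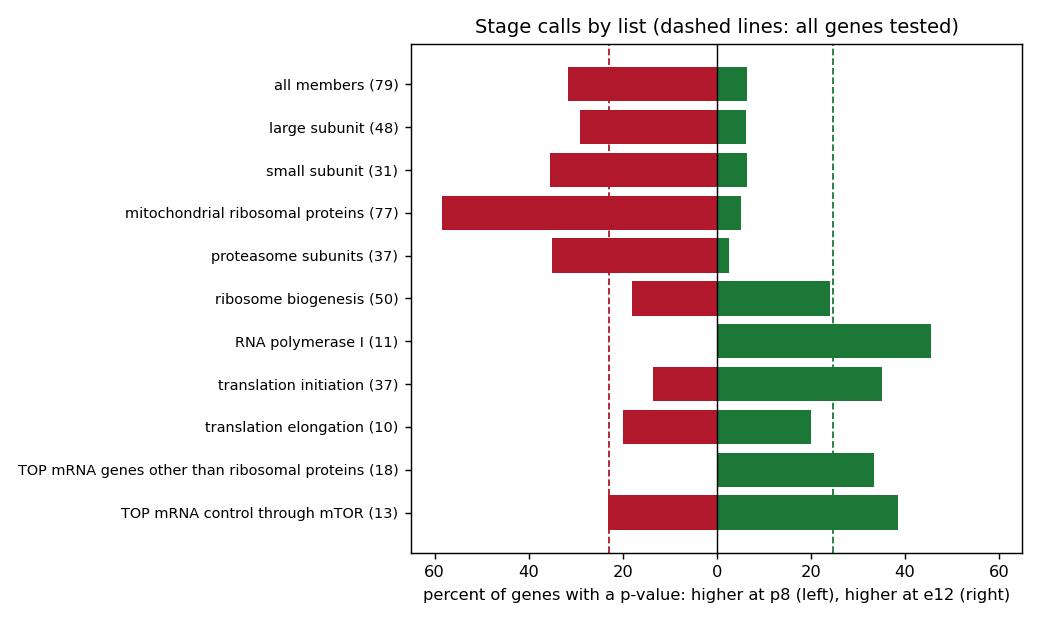
Share of genes with a p-value in each list that were higher at p8 (bars to the left) or higher at e12 (bars to the right), with the number tested in brackets and dashed lines at the shares over all genes tested, 23% and 24.8%. The members, mitochondrial ribosomal proteins and proteasome subunits lean to p8, while RNA polymerase I, initiation factors and other TOP genes lean to e12.

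At p8, each cord region was compared with the other two to ask which genes mark MNs of a region. The 3 comparisons use the same 9 samples and are not independent. No member was called in any of them, and none had an unadjusted p under 0.05 in the Wald test. The smallest p among members was 0.201 for brachial, 0.189 for thoracic and 0.200 for lumbar. Calls were rare over all genes too: 0.18% were higher and 0.0817% lower in brachial, 0.011% and 0% in thoracic, and 0.00547% and 0.0164% in lumbar MNs. The members' median standard errors were 0.60, 0.57 and 0.58 on the log2 scale, so that differences of a fold of 2 were not detectable for a typical member.

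The members' values nevertheless lay mostly on 1 side within each comparison. In lumbar over the other two, 78 of 79 were above 0 with a median of 0.39 on the log2 scale, where 45.3% of all genes were above 0 and the median of all genes was -0.08. In thoracic 74 of 79 were below 0 (median -0.27, all genes -0.11) and in brachial 67 of 79 (median -0.17, all genes -0.03). Of all genes, 58.8% were below 0 in thoracic and 53.6% in brachial. The exception in lumbar was Rpl39l, with a base mean of 0.258. Members share libraries and are not replicates, so these counts were given no test.

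Single members show the size of the shift. Rplp0 had a level of 4563 in brachial, 4112 in thoracic and 6372 in lumbar MNs. For Rps3 these were 5121, 4953 and 6572, and for Rpl4 they were 4988, 4860 and 6089. Rps15a had 391, 476 and 597, and Rpl13 had 1094, 1060 and 1406. In all of these the lumbar level was the highest. The smallest lumbar p belonged to Rpl7a, with 274, 251 and 414. Rpl15 had the smallest thoracic p with 400, 261 and 408, and Rpl21 the smallest brachial p with 51.9, 75.7 and 108. The 95% interval of each of these differences includes 0.

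Other lists were read in the same way, with no test of the difference. In lumbar the median log2 fold change was 0.18 over 78 mitochondrial ribosomal proteins, 0.03 over 37 proteasome subunits, 0.06 over 37 initiation factors and 0.27 over 18 other TOP genes. Marker lists moved as well: the lumbar medians were 0.19 for oligodendrocyte, 0.43 for astrocyte, -1.14 for microglia, -0.86 for MN and 1.78 for erythroid markers, with no marker called. The part of these cells in the members' values was not tested. Spearman correlations of the regional fold changes with coding length were -0.15, 0.16 and 0.03 across 78 members for brachial, thoracic and lumbar MNs.

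**Figure D5:**
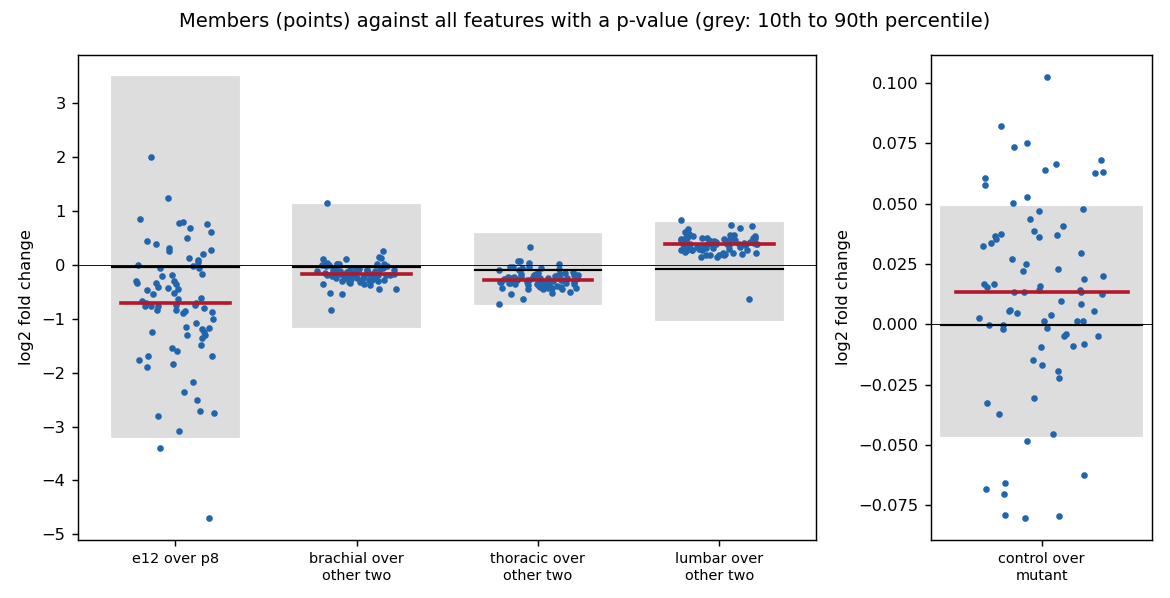
Log2 fold changes of the members with a p-value (points, red bar at their median) in the 5 comparisons, over grey boxes from the 10th to the 90th percentile of all features tested and a black bar at their median; control over mutant has its own axis. Members lie mostly below 0 for e12 over p8 (60 of 79) and above 0 for lumbar over the other regions (78 of 79). For control over mutant they lie on both sides of 0, with 53 of 79 above it.

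In the comparison of control with Hoxc8 MNΔ, the targeted gene came first. Hoxc8 had a base mean of 19301 and a log2 fold change of control over mutant of 0.10 (-0.06 to 0.26, Wald p of 0.209, adjusted p = 0.99985). Whether the deleted part lies in the counted sequence is not given in the sources used here, so this value is no check of the deletion. The paper counts Hoxc8 among its transcripts lower in mutants at p under 0.05, unlike the value here. By staining, the paper did not detect Hoxc8 protein in mutant MNs at e12.5. Values in this comparison were strongly drawn toward 0 by the model, as no fold change of its 35729 transcripts exceeded 0.42 on the log2 scale and the median standard error was 0.00683 at a base mean under 1. Each member was followed by its transcript with the highest base mean.

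No member was called, at a p under 0.05 or after adjustment. Over all transcripts 0.453% were higher and 0.418% lower in controls at that p, and 0.0102% and 0.0255% after adjustment. The median of the members was 0.01 and 53 of 79 were above 0, with extremes of -0.08 and 0.10. The smallest unadjusted p, 0.0565 in the Wald test, belonged to Rps24 at -0.06 (-0.13 to 0.002, adjusted p = 0.99985) with a base mean of 6.88. Rps29, with a base mean of 4.795, followed at 0.0587. Among members with many reads, Rpl4 had a base mean of 9393 and a log2 fold change of 0.005 (-0.10 to 0.11), Rpl8 had 8239 and 0.03 (-0.08 to 0.14), and Rps3 had 6625 and 0.07 (-0.04 to 0.18). Every interval in this comparison rests on values drawn toward 0, so a narrow interval does not show that control and mutant were equal.

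Several members had few reads in that comparison, which was counted by transcript. Only 43 members had a base mean of at least 100, against 75 tested between the stages. For 13 members with 2 or more transcript rows and an e12 level of at least 50, the base mean of the highest row was typically 0.00424 times the e12 level, where it was 0.241 times for members with 1 row. Rpl38 had a base mean of 0.142 and Rps27l of 0.151, against e12 levels of 565 and 196. Rpl26, which has 1 row, was listed at 0. The cause of the low base means was not tested. At those base means a difference from the mutants was not detectable.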

How the data were processed

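RNA of FACS-sorted MNs was read as 50-base single ends. Uniquely placed reads were aligned by the authors to mm10 (HISAT), then counted with featureCounts and compared with DESeq2, per the labels and methods, with versions not given in the sources used here. They deposited 5 tables, per gene or, for the mutants, per RefSeq transcript, and no values per sample, so depth per sample is unknown, no model was refitted, and 0 per-sample columns were set aside. The base mean deposited by the authors is a signal, namely the average of size-factor-corrected counts in all samples of a table. The log2 fold changes with their standard errors, the Wald score and the 2-sided Wald p-value were also deposited by the authors. These columns belong to the authors' own comparisons, and every fold change, interval and call reported rests on that fitted model and is not an independent re-estimate. Standard errors shrink at low base mean in the mutant table, as with a zero-centred prior on fold changes.

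From these, p-values were adjusted within each table (Benjamini-Hochberg, threshold 0.05), 95% intervals were taken from the standard errors, and levels were solved with weights of 6 and 3 samples between the stages (the methods name 3 at e12.5, so 3 and 3 were tried, and 6 and 2), and 3 and 6 for a region. Symbols came from GRCm38.p6 (93.0% of genes, 99.2% of transcripts). Coding lengths and shared 50-base windows came from GENCODE M21, with the CCDS transcript of each gene first; Rpl32l has no coding sequence there. Members were named by a rule: the called members with the smallest p, up to 8 in each direction, paralogs, the 5 highest and 5 lowest per coding base, stalk proteins and Rpsa, and the leading genes of lists. The members and lists were chosen with earlier results of these data known. Role groups, the tract search and members named for regions and mutants without a call were chosen after values had been seen. Several genes under that rule are counted without being named. Calls and levels were tested on simulated data. Python 3.11.15, numpy 2.4.6, pandas and scipy were used. Alternatives were other adjustments, base mean filters, re-centred fold changes, other weights and length.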

Additional observations from a re-analysis of the deposited data

How the results depend on the processing

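Between the stages, the deposited adjusted p, base mean filters of 10 and 100 and re-centred fold changes kept all 5 members higher at e12 and 23 to 25 of those higher at p8. The Benjamini-Yekutieli adjustment left 1 and 14, and a fold over 4 as well left 1 and 9, in both cases because the rule is stricter. With under 50% of windows shared, an alternative chosen after seeing the data that tests fewer members, 2 and 11 were called. No member was called in a region under any alternative run. In the mutants re-centring called 2 members lower in controls, Rps24 and Rps29, whose Wald p was 0.0565 and 0.0587 before it. The medians kept their sign in every alternative run, with thoracic at -0.13 after re-centring. The members' share of summed levels was 0.293 percentage points higher at e12. Weights of 3 and 3 samples gave 0.0634 and weights of 6 and 2, chosen after seeing the data, gave 0.425, and leaving out the oligodendrocyte markers reversed it to -0.133. No paired analysis was possible because the deposited tables hold no values per sample, and leaving out replicates was not run for the same reason. Which of the 6 control samples entered each table is not given in the sources used here.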

Other observations

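Cytosolic ribosomal proteins whose symbols fall outside the rule were measured as well. Of 8 tested between the stages, 3 were higher at p8 and 1 was higher at e12. Rack1, a scaffold on the head of the small subunit, stood at 4589 in embryonic and 1878 in postnatal samples (log2 fold change 1.29, adjusted p = 0.000404). Fau, which makes a ubiquitin-like fusion of a small subunit protein, had 1616 and 3247 (adjusted p = 0.0268). Rpl36al had 261 and 1085 (adjusted p = 1.37e-05), and Rpl22l1, the paralog of Rpl22, had 302 and 677 (adjusted p = 0.00825). Rpl22 itself had 2689 and 2594 (adjusted p = 0.949). Rps3a1, a small subunit protein, had 1526 and 2163 (adjusted p = 0.262).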
